A study of Mus musculus with 8 samples.

Results

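The miR-17-92 and miR-106b-25 clusters are related groups of microRNAs (miRNAs), each processed from a single primary transcript. They were represented in mouse liver by 10 mature miRNAs, of 443 mature sequences in the count table. They were chosen by name and cluster, with no threshold on their values. Of these, 6 belong to miR-17-92 (mmu-miR-17-5p, mmu-miR-18a-5p, mmu-miR-19a-3p, mmu-miR-20a-5p, mmu-miR-19b-3p and mmu-miR-92a-3p) and 4 to miR-106b-25 (mmu-miR-106b-5p, mmu-miR-106b-3p, mmu-miR-93-5p and mmu-miR-25-3p), where mmu stands for mouse. The livers came from male C57BL/6J mice, an inbred strain, aged 10 to 11 weeks. For 2 weeks the mice ate normal chow (4 samples) or a high-fructose diet, HFrD (4 samples), and the labels call the HFrD samples a diet-induced model of non-alcoholic fatty liver disease (NAFLD). No measure of liver fat was among the data used here. HFrD drew 10% of its calories from fat, 70% from carbohydrate and 20% from protein. What the chow held was not stated, so fructose and other differences between the diets cannot be told apart. The labels number the samples without saying that each was a separate mouse, so the p-values speak only of variation among these samples, which may be partly technical.

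A miRNA guides the Argonaute silencing complex to messenger RNAs, mainly through its seed, bases 2 to 8 from its 5′ end. Members of a cluster leave the nucleus as separate hairpins after the primary transcript is cut, and their mature levels can then differ through processing and stability. Both transcripts are known to be switched on by MYC and E2F factors in dividing cells. The miR-17-92 transcript is a known driver of mouse B-cell lymphoma, and mice that lack it die around birth with small lungs and a heart defect. The miR-17 seed group is known in human cells to repress E2F1 and the cell cycle inhibitor p21.

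The mature sequences are shown because the seeds, in capitals, sort the 10 members into 5 groups, some of which cut across the clusters. All 10 sequences equalled their RefSeq entries on build GRCm38.p6. The group AAAGUGC joins 2 members of each cluster:
miR-17-5p: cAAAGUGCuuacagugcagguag
miR-20a-5p: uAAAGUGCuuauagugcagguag
miR-93-5p: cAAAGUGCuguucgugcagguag
miR-106b-5p: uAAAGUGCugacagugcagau
The seed AUUGCAC joins the last miRNA of each transcript:
miR-25-3p: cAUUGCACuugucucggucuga
miR-92a-3p: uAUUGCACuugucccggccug
The remaining seeds belong to miR-19, to miR-18 and to the opposite arm of the miR-106b hairpin:
miR-19a-3p: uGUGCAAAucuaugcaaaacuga
miR-19b-3p: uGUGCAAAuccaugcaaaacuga
miR-18a-5p: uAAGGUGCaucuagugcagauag
miR-106b-3p: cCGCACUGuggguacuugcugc

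Some members are near-identical, and how reads matching several miRNAs were assigned was not stated. Counted from base 1 at the 5′ end, miR-19a-3p and miR-19b-3p differ by 1 substitution (U11C, with the miR-19a-3p base first). From miR-17-5p to miR-20a-5p there are 2 substitutions, C1U and C12U. miR-92a-3p and miR-25-3p differ by 3 over the 21 bases they share (U1C, C14U and C18U, with the miR-92a-3p base first). The hairpin of Mir106b is shown because both of its arms were counted; the arms are in capitals, 5p first:
Mir106b: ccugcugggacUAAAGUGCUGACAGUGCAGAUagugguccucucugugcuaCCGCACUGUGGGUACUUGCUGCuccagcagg

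The miR-17-92 hairpins lie on chromosome 14 of GRCm38, plus strand, from Mir17 (115043671 to 115043754) to Mir92-1 (115044427 to 115044506). GENCODE M21 places all 6 in an exon of the long non-coding RNA gene Mir17hg. The miR-106b-25 hairpins lie on chromosome 5, minus strand, inside Mcm7, which encodes a subunit of the replicative DNA helicase. Mir106b (138165737 to 138165818) is intronic, while Mir93 (138165523 to 138165610) and Mir25 (138165321 to 138165404) overlap an exon of at least 1 Mcm7 transcript. miR-19b-3p and miR-92a-3p have a second gene each on chromosome X, in the miR-106a-363 cluster (Mir19b-2, 52741983 to 52742066, and Mir92-2, 52741838 to 52741928). The table gave the same counts for both genes, so their contributions cannot be told apart.

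Libraries held 1120035 to 1638036 raw tag counts, and 0.214% to 0.324% of them were from the 10 members. Levels are in counts per 1000000 (CPM) over library sizes scaled by trimmed mean of M-values (TMM), where 1 count over the plain library total was worth 0.611 to 0.893 CPM. The reads carry no molecular identifiers, so counting error alone would understate the error of a level. Chow replicate 4 had the lowest value on the first principal component of all tested miRNAs, at −5.14. The other chow libraries were at −1.69 to −0.52, and the HFrD libraries were all above 0, up to 2.69. In whole liver, fewer cells of a type and less RNA per cell cannot be told apart.

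miR-25-3p, known in mouse heart to repress the calcium pump gene Atp2a2, was the most abundant member and ranked 17th of 170 tested miRNAs by level. Chow replicates 1 to 4 gave 1902, 1615, 2057 and 1734 CPM, and HFrD replicates 1 to 4 gave 1876, 2581, 2229 and 2269 CPM. The highest values were in HFrD, and only HFrD replicate 1 lay within the chow range. The group means were 1827 ± 193 and 2238 ± 288 CPM (SD, n = 4 each), and the edgeR log2 fold change, 0.29 (SE 0.11), missed the threshold (adjusted p = 0.0953).

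miR-20a-5p ranked 43rd. Its chow values were 332, 369, 300.2 and 420.1 CPM, and its HFrD values were 249, 296, 281 and 271 CPM. No HFrD library reached the lowest chow library, although the nearest values were 296 and 300.2 CPM. Means were 355 ± 51.5 in chow and 274 ± 19.8 CPM in HFrD (SD, n = 4 each), and the log2 fold change of −0.37 (SE 0.12) also missed the threshold (adjusted p = 0.0566, edgeR). Over plain library totals the groups of miR-20a-5p overlapped, whereas those of miR-25-3p did not. That scale moved the 170 tested miRNAs upwards in general, from a median log2 fold change of 0.01 with TMM to 0.13. The share of them without overlap there was not counted, so how common such a separation is was not tested.

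The other 3 miRNAs with the miR-17 seed were less abundant. miR-93-5p was at 86.0, 105, 84.8 and 162 CPM in chow and at 93.5, 99.4, 81.1 and 77.1 CPM in HFrD. Chow replicate 4 was its highest library by a wide margin, and the remaining chow values overlapped those of HFrD. In edgeR its log2 fold change, −0.31 (SE 0.19; adjusted p = 0.351), went to −0.09 without chow replicate 4 (adjusted p = 0.811). miR-17-5p was at 82.8, 95.1, 84.0 and 90.8 CPM in chow and at 62.1, 86.5, 77.3 and 70.3 CPM in HFrD. Of these, only HFrD replicate 2 reached the chow range, for an edgeR log2 fold change at −0.26 (SE 0.14; adjusted p = 0.311), and at −0.16 without HFrD replicate 1. miR-106b-5p in chow was at 26.3, 20.4, 21 and 22.3 CPM, and in HFrD at 14.1, 24.0, 29.6 and 23.4 CPM. HFrD held both its lowest and its highest library, around equal means (22.5 ± 2.65 and 22.8 ± 6.41 CPM, SD, n = 4 each). The edgeR log2 fold change was 0.01 (SE 0.24; adjusted p = 0.961), and its sign changed under 7 of 21 alternatives.

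Of the miR-19 pair, miR-19b-3p was at 10.4, 8.49, 7.78 and 12.5 CPM in chow and at 6.41, 8.57, 9.43 and 6.80 CPM in HFrD. The groups overlapped, on 9 to 15 counts per library, and in edgeR the log2 fold change came to −0.32 (SE 0.29; adjusted p = 0.503). It was −0.21 without chow replicate 4 and −0.20 without HFrD replicate 1. miR-19a-3p had 3, 2, 2 and 2 counts in chow, and in HFrD a blank followed by 6, 2 and 3. At this depth no difference could be read from it.

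The remaining members were likewise too rare to pass the filter on low counts. miR-18a-5p, which in mouse tumours is known to repress the matrix gene Ctgf, had 2, 3, 7 and 4 counts in chow, and in HFrD a blank, 2, 12 and 2. miR-106b-3p had 8, 5, 6 and 4 counts in chow and 7, 9, 9 and 3 in HFrD. miR-92a-3p, known in mice as a brake on vessel growth, had 4 and 6 counts in chow replicates 1 and 3, blanks in chow replicates 2 and 4, and 4, 3, 2 and 2 counts in HFrD. A blank was read as 0, although the smallest value in the table was 2. The 21 counts of miR-92a-3p over all libraries stood beside 21371 of miR-25-3p, which has the same seed. Since the assignment of reads matching several miRNAs was not stated, these counts need not reflect its level in liver.

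**Figure D1:**
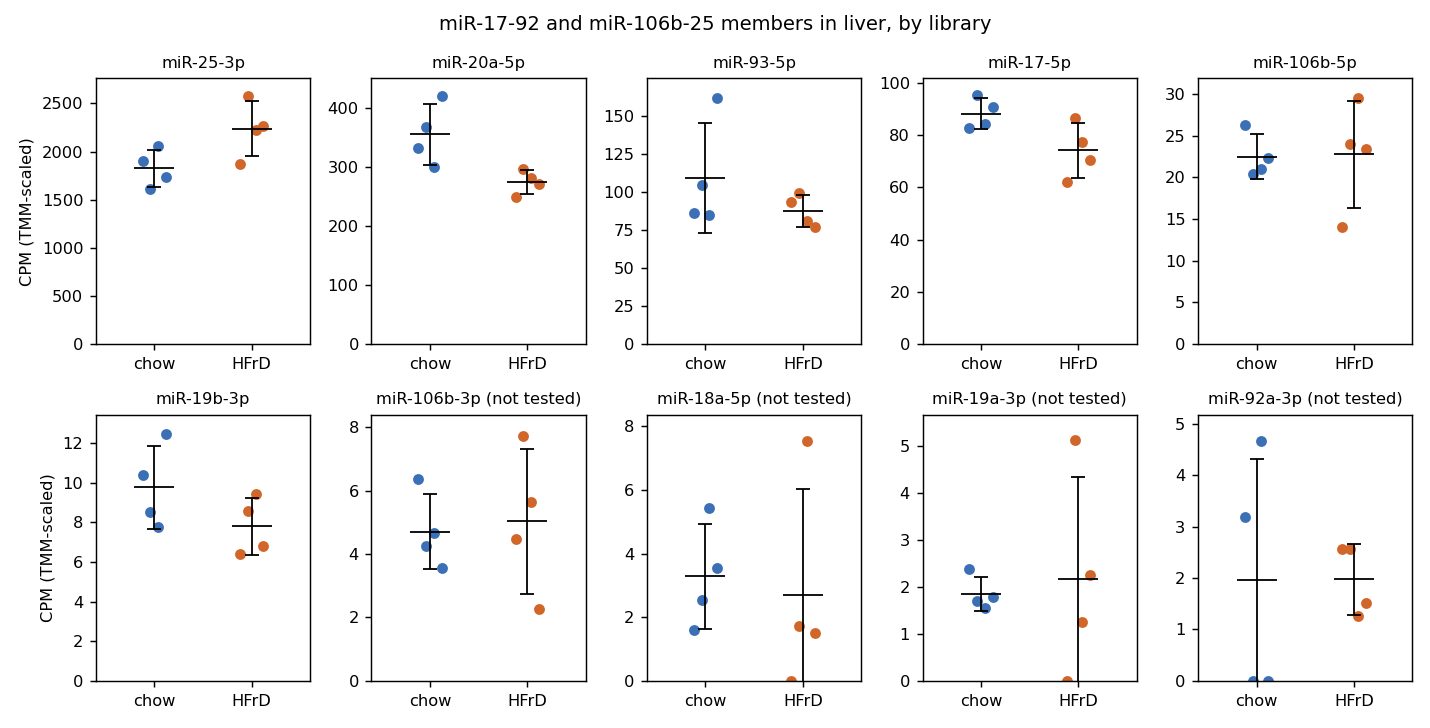
TMM-scaled CPM (y axis) of each member in chow and HFrD, with 1 point per library and bars for mean ± SD of 4 libraries (cut at 0); panels are ordered by level and have their own scales. The HFrD libraries of miR-20a-5p (249 to 296 CPM) lie below all chow libraries (300.2 to 420.1 CPM), and the panels marked as not tested rest on few counts.

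Ordered by mean over the 8 libraries, the levels were 2033 CPM for miR-25-3p, 315 for miR-20a-5p, 98.5 for miR-93-5p, 81.1 for miR-17-5p, 22.6 for miR-106b-5p, 8.79 for miR-19b-3p, 4.87 for miR-106b-3p, 2.99 for miR-18a-5p, 2.01 for miR-19a-3p and 1.97 for miR-92a-3p. The ranges of neighbours in this order overlapped for miR-93-5p and miR-17-5p, and from miR-19b-3p downwards. They did not overlap between miR-25-3p, miR-20a-5p and the pair of miR-93-5p and miR-17-5p, nor between that pair, miR-106b-5p and miR-19b-3p. How small RNA was selected, and how evenly different sequences were captured, was not stated, so this is an order of tag counts.

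Levels varied widely within each cluster. Along the miR-17-92 transcript the mean went from 88.2 CPM in chow for miR-17-5p, the first, to 3.29 for miR-18a-5p and 1.86 for miR-19a-3p, then up to 355 for miR-20a-5p at 499 bases from the first, and down to 1.96 for miR-92a-3p at 792 bases. In miR-106b-25 the last miRNA, miR-25-3p, was the highest, at 454 bases from the first. miR-20a-5p made up 73.9% to 79.5% of the miR-17-92 counts of a library, and miR-25-3p made up 90.2% to 95.7% of those of miR-106b-25.

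**Figure D2:**
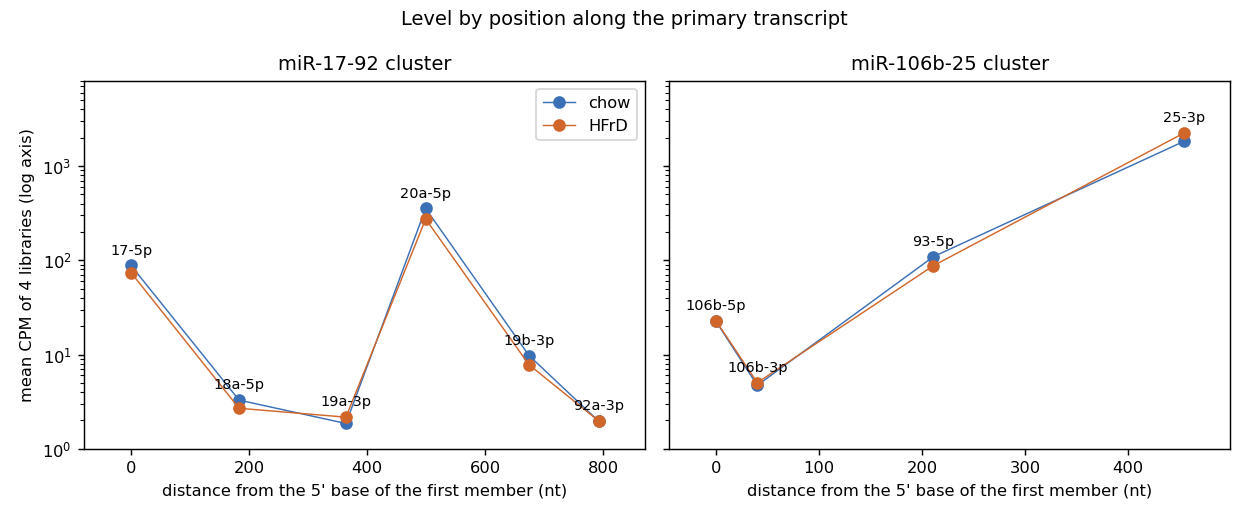
Mean CPM of 4 libraries per diet (y axis, log scale) against the distance of each member's 5′ base from that of the first member (x axis, bases), for each cluster. In both diets miR-20a-5p is the peak of miR-17-92 (355 and 274 CPM), and miR-25-3p, the most distal, is the peak of miR-106b-25 (1827 and 2238 CPM).

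The comparison of diets asks whether liver miRNAs differ between HFrD and chow. Of the 10 members, 6 passed the filter on low counts (3 of each cluster), and edgeR's quasi-likelihood test called none of the 6 at an adjusted p of 0.05 over 170 miRNAs. Over all tested miRNAs, 5.88% were called. miR-25-3p and miR-20a-5p had unadjusted p of 0.0129 and 0.00488, 2 of 6, where 23.5% of all tested miRNAs were below 0.05. Among the tested members, 4 had a negative log2 fold change (47.6% of all tested did) and 2 a positive one. Their median was −0.28, against 0.01 over all tested miRNAs, and the list was not tested as a set. Only miR-20a-5p had groups without overlap, as did 14.1% of all tested miRNAs. DESeq2, which called 6.47% of all tested miRNAs, called 1 member, miR-20a-5p (log2 fold change −0.37, adjusted p = 0.0303), and limma on log2 CPM called none, with 5.29% of all called.

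**Figure D3:**
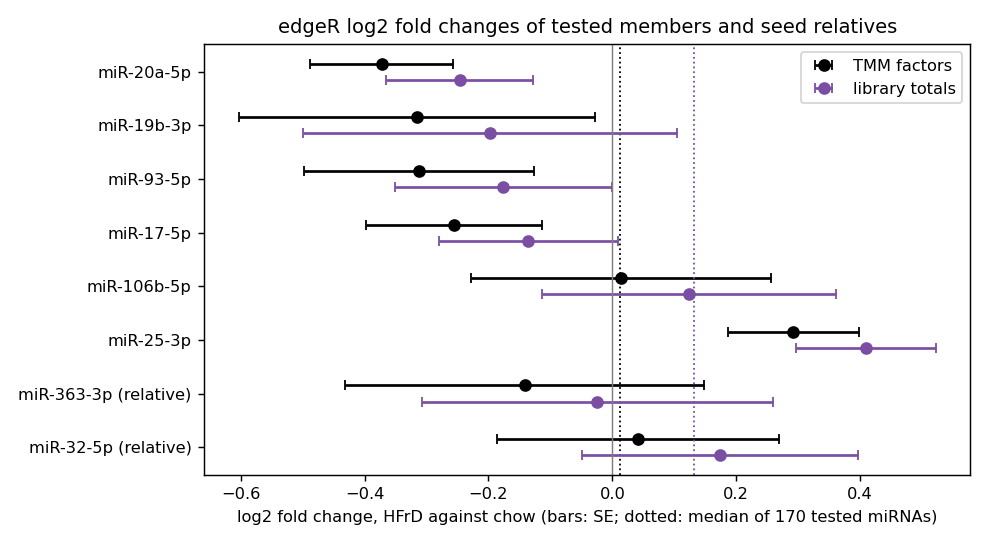
Log2 fold change of HFrD against chow (x axis; bars are SE) in edgeR for the 6 tested members and 2 seed relatives (y axis), with TMM factors in black and plain library totals in purple; dotted lines are the medians of 170 tested miRNAs (0.01 and 0.13). A change of scaling shifts all members by nearly the same amount, so their order stays the same, with miR-20a-5p lowest and miR-25-3p highest.

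Which of the pair was called depended on the scaling. With library totals the median of all tested miRNAs moved to 0.13, and miR-25-3p passed (log2 fold change 0.41, 0.28 above that median, adjusted p = 0.0205), among 13.5% of miRNAs called. There miR-20a-5p was at −0.25, which is 0.38 below the median (adjusted p = 0.215). With the size factors of DESeq2 in edgeR (RLE), miR-20a-5p passed (−0.37, adjusted p = 0.0492) and miR-25-3p did not (0.29, adjusted p = 0.0894), with 7.06% of miRNAs called. With upper quartile factors, which put the median of all tested miRNAs at 0.12, neither passed (miR-20a-5p at −0.25, adjusted p = 0.427, and miR-25-3p at 0.40, adjusted p = 0.160), with 0.588% called. miR-20a-5p also passed without predicted sequences (10.4% called). miR-25-3p also passed without a filter (4.97% called) and in limma on the authors' normalized values (11.8% called). Without chow replicate 3 both passed, with adjusted p of 0.0216 for miR-20a-5p and 0.0470 for miR-25-3p, among 9.66% of miRNAs called. miR-25-3p also passed without HFrD replicate 1 (adjusted p = 0.0189, 6.98% called). Without chow replicate 4 neither did (adjusted p = 0.104 and 0.191, 4.05% called).

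Summed by cluster, miR-17-92 reached 432, 476, 404 and 529 CPM in chow, against 320, 401, 378 and 354 CPM in HFrD. The groups of this sum did not overlap, the nearest values being 404 and 401, and over library totals they did overlap. The miR-106b-25 sum averaged 1964 ± 178 in chow against 2354 ± 296 CPM in HFrD (SD, n = 4 each). Its groups overlapped, but over library totals every HFrD library was above every chow library. By seed, the AAAGUGC members summed to 575 ± 89.7 in chow against 459 ± 37.6 CPM in HFrD, and the AUUGCAC members to 1829 ± 196 and 2240 ± 288 CPM. Both overlapped between diets, while over library totals the AUUGCAC sum was higher in every HFrD library, as was the sum of both clusters (2424 ± 147 and 2717 ± 328 CPM with TMM, SD, n = 4 each, overlapping). The GUGCAAA sum of the miR-19 pair was at 11.6 ± 2.27 and 9.97 ± 3.06 CPM (SD, n = 4 each). No test was made on these sums, since each is dominated by 1 member. Those higher in HFrD over library totals are mostly miR-25-3p. How many of all tested miRNAs had no overlap on that scale was not counted.

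Ratios of members within a library do not depend on its scaling. The count of miR-25-3p over that of miR-20a-5p was 5.73, 4.38, 6.85 and 4.13 in chow, against 7.53, 8.71, 7.93 and 8.36 in HFrD. Every HFrD library exceeded every chow library, with means of 5.27 ± 1.27 and 8.13 ± 0.512 (SD, n = 4 each). The same held for miR-25-3p over miR-17-5p, at 23.0, 17, 24.5 and 19.1 in chow and 30.2, 29.8, 28.8 and 32.3 in HFrD. These ratios were singled out after their values were seen and carry no test. They were the 2 of 15 pairs of tested members whose groups did not overlap, and 12.9% of the 14196 pairs among all tested miRNAs without a blank did not overlap either, so the count of pairs is near the background. In total, miR-25-3p made up 70.8% to 80.0% of the counts of the 10 members in chow and 81.3% to 83.3% in HFrD.

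Of 6 other ratios taken from the clusters' layout, none passed an exact permutation test (two-sided), which with 70 possible assignments of the samples can go no lower than p = 0.0286. The widest contrast on adequate counts was miR-25-3p to miR-93-5p, neighbours on the same transcript. Their count ratio was 22.1, 15.5, 24.3 and 10.7 in chow and 20.1, 26.0, 27.5 and 29.4 in HFrD, with overlapping groups. The mean log2 ratio differed by 0.56 (exact permutation p = 0.114, and 0.686 adjusted over the 6 ratios), and by 0.33 without chow replicate 4. miR-17-5p to miR-20a-5p, which share a transcript and a seed, differed by 0.10 in log2 ratio, with SDs of 0.16 and 0.10 (n = 4 each, exact permutation p = 0.314). Leaving out 1 library gave 0.034 (chow replicate 4) to 0.16 (chow replicate 3). miR-93-5p to miR-20a-5p, of the same seed on different transcripts, differed by 0.09, with SDs of 0.25 and 0.19 (n = 4 each, exact permutation p = 0.629). With 1 library left out it ranged from 0.014 (HFrD replicate 1) to 0.21 (chow replicate 4). The arms of miR-106b were in a count ratio of 4.92 ± 0.929 in chow and 5.45 ± 3.40 in HFrD (SD, n = 4 each; 5p over 3p; exact permutation p = 1.0 for the log2 ratio). The 2 ratios with miR-92a-3p rest on 0 to 6 counts (exact permutation p of 0.400 against miR-20a-5p and 0.600 for miR-25-3p against it). The adjusted p of the last 5 ratios ran from 0.754 to 1.0.

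**Figure D4:**
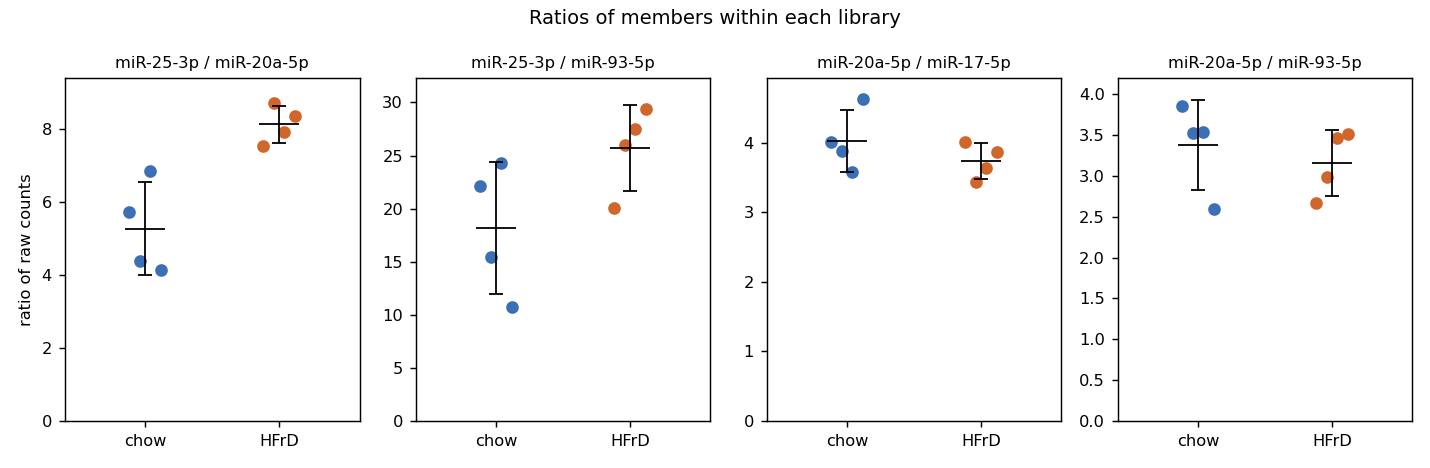
Ratio of raw counts of 2 members within each library (y axis, from 0), with 1 point per library and bars for mean ± SD of 4 libraries per diet. The ratio of miR-25-3p to miR-20a-5p lies at 4.13 to 6.85 in chow and at 7.53 to 8.71 in HFrD; the ratios of miR-20a-5p to miR-17-5p and to miR-93-5p overlap between diets.

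Relatives of the clusters ranged from 2 counts in 1 library to a mean of 32.9 CPM over the 8 libraries, for miR-32-5p. That mean was above the 22.6 CPM of the member miR-106b-5p. Of 10 passenger arms looked for, the table listed 1, miR-25-5p, with 2 counts in HFrD replicate 4. Of 8 names in the miR-106a-363 cluster on chromosome X it listed 4: miR-363-3p, miR-20b-5p, miR-106a-5p and miR-363-5p. Outside the members, 5 miRNAs shared one of the seeds, and 2 of them passed the filter, with neither called by edgeR. miR-32-5p, which has the AUUGCAC seed, averaged 32.4 ± 10.2 in chow against 33.4 ± 4.89 CPM in HFrD (SD, n = 4 each), a log2 fold change in edgeR of 0.04 (SE 0.23; adjusted p = 0.907). miR-363-3p, of the same seed, averaged 14 ± 4.54 and 12.6 ± 3.03 CPM (log2 fold change −0.14, SE 0.29, adjusted p = 0.772, edgeR). miR-20b-5p had 8, 11, 8 and 12 counts in chow and 8, 5, 11 and 6 in HFrD, and miR-106a-5p and miR-92b-3p were each listed in 1 library with 2 counts. With these relatives included, miR-25-3p made up 96.6% to 98.2% of the AUUGCAC seed counts in each library, and miR-20a-5p 58.1% to 62.2% of the AAAGUGC seed counts.

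For each tested member, the most similar miRNA was taken as the one with the smallest root mean square difference in centred log2 CPM over the 8 libraries. It was miR-27b-3p for miR-20a-5p (0.10, against a median of 0.32 over all tested), and miR-27b-3p was itself lower in HFrD (log2 fold change −0.45, SE 0.099, adjusted p = 0.0123, edgeR). Since it was picked for similarity over the same libraries, a like difference follows from the choice and lends miR-20a-5p no support. The most similar miRNA was miR-379-5p for miR-17-5p (0.09), miR-125b-5p for miR-25-3p (0.09), miR-152-3p for miR-93-5p (0.11), miR-194-5p for miR-19b-3p (0.12) and miR-29a-3p for miR-106b-5p (0.14), and edgeR called none of these 5. miR-20a-5p and miR-17-5p were each the fourth most similar miRNA to the other (0.12). The nearest member to miR-25-3p, miR-106b-5p, ranked 55th among the other tested miRNAs (0.27).

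The relation of level to GC content differed between chow and HFrD libraries, and the source of this was not tested. The slope of log2 CPM on GC content, relative to each miRNA's mean, ran from −0.18 to 0.0045 per 10 points of GC in chow, lowest in chow replicate 4, and from 0.036 to 0.082 in HFrD, with no overlap. The median log2 fold change was −0.13 over 32 tested miRNAs under 40% GC and −0.08 over 78 from 40% to under 50%. It was 0.14 over 48 from 50% to under 60%, and 0.26 over 12 at 60% or more. miR-20a-5p and miR-19b-3p have a GC content of 39.1%, miR-106b-5p 42.9%, miR-17-5p 47.8%, miR-25-3p 50% and miR-93-5p 52.2%. In limma, a linear correction for GC content took miR-20a-5p from −0.36 to −0.27 (adjusted p = 0.0558 and 0.143) and miR-25-3p from 0.29 to 0.24 (adjusted p = 0.0949 and 0.175). For miR-93-5p the value went from −0.27 to −0.35 (adjusted p = 0.406 and 0.303), and for miR-17-5p from −0.26 to −0.28 (adjusted p = 0.301 and 0.246). miR-19b-3p went from −0.27 to −0.18 (adjusted p = 0.522 and 0.667), and miR-106b-5p changed sign, from −0.020 to 0.025 (adjusted p = 0.953 and 0.952). With the correction limma called 4.71% of all tested miRNAs and no member.

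**Figure D5:**
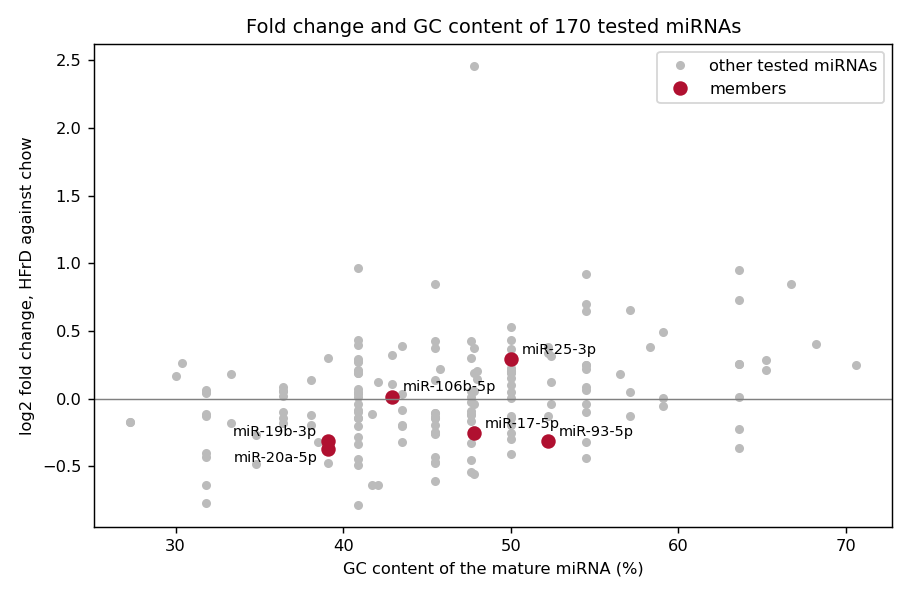
Log2 fold change of HFrD against chow (y axis, edgeR) against GC content of the mature miRNA in percent (x axis) for 170 tested miRNAs, with the 6 tested members in red. miR-25-3p (50% GC, 0.29) and miR-93-5p (52.2% GC, −0.31) are close in GC content and lie on opposite sides of 0. Without chow replicate 4 the miR-93-5p value is −0.09, and the part of GC content in these differences was not tested.

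Markers of cell types were read beside these values, and their part in the members' differences was not tested. The endothelial pair miR-126a-3p and miR-126a-5p summed to 7440 to 10084 CPM in chow and 5893 to 6865 CPM in HFrD, without overlap. That sum was mostly miR-126a-3p, which was lower in HFrD (log2 fold change −0.43, SE 0.098, adjusted p = 0.0123, edgeR). For miR-126a-5p, at means of 287 and 264 CPM, the groups overlapped (log2 fold change −0.12, SE 0.11, adjusted p = 0.504, edgeR). Over all tested miRNAs, 14.1% had groups without overlap and 5.88% were called. The sums of 4 hepatocyte markers (615808 to 704313 and 581260 to 627845 CPM), 4 erythroid markers (92.4 to 111 and 83.9 to 165 CPM), 4 myeloid markers (225 to 417 and 244 to 389 CPM) and 3 lymphoid markers (32.7 to 40.1 and 39.1 to 49.1 CPM) overlapped between diets, and edgeR called none of the 11 of these 15 that were tested. The hepatocyte sum was mostly miR-148a-3p (log2 fold change −0.14, SE 0.091, adjusted p = 0.396, edgeR). In the same fit miR-122-5p was at −0.26 (SE 0.097, adjusted p = 0.0985). miR-194-5p was at −0.14 (adjusted p = 0.478) and miR-192-5p at 0.01 (adjusted p = 0.936). Of the defining markers, the lymphoid miR-155-5p was blank in 6 libraries and the myeloid miR-223-3p in 2. The myeloid sum was mostly miR-146a-5p, at 273 to 580 counts per library, the only 1 of the 4 myeloid markers tested.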

How the data were processed

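Raw tag counts per mature miRNA were deposited for 8 liver samples, with blanks where no value was listed, per the file headers. The submitters' processing notes name cutadapt 1.9.2, Novoalign 3.02.12 and mm10. The authors also deposited normalized values, used as a score in 1 alternative only. Columns were matched to samples by description. The 484 entries were merged by mature sequence into 443, and blanks were read as 0. Counts were tested with edgeR 4.0.16 (quasi-likelihood, TMM factors, filterByExpr with a minimum count of 10, diet as the only term) in R 4.3.3, with Benjamini-Hochberg adjustment over 170 miRNAs, two-sided. The fit was run on simulated data with fold changes larger than those of the tested members, so that run does not bear on changes of their size. Alternatives used limma 3.58.1 and DESeq2 1.42.0. Ratios of members were log2 of counts plus 0.5. No 2 replicates of a diet agreed within sampling noise. Sequences and positions came from RefSeq (GRCm38.p6) and GENCODE M21. All 10 members are named; relatives and most similar miRNAs followed fixed rules. Members, lists and ratios were chosen with earlier results of these data known. Python 3.11.15, pandas 2.3.3, scipy 1.17.1 and matplotlib 3.10.9 were used.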

Additional observations from a re-analysis of the deposited data

How the results depend on the processing

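Over 21 alternatives to the fit, the log2 fold changes of miR-20a-5p (−0.45 to −0.24, adjusted p from 0.0216 to 0.427), miR-17-5p (−0.33 to −0.14), miR-19b-3p (−0.44 to −0.18), miR-93-5p (−0.41 to −0.09) and miR-25-3p (0.22 to 0.41, adjusted p from 0.0153 to 0.287) kept their direction. miR-106b-5p changed sign in limma without GC correction (−0.020), with the replicate block (−0.0041) and without 1 library (−0.16 to 0.22). The members called went from 0 to 1 with RLE factors, DESeq2 or without predicted sequences (miR-20a-5p each time) and with library totals, no filter or limma on the authors' normalized values (miR-25-3p each time). Without 1 library, 0 to 2 were called. All miRNAs called were 10, against 23 with library totals, 1 with upper quartile factors, 22 without a filter, 17 without predicted sequences, 20 with limma on the authors' normalized values and 1 to 17 without 1 library (1 when chow replicate 2 was left out, 17 for chow replicate 3 and 6 for HFrD replicate 4). The cause of these changes was not tested.

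The difference in log2 ratio changed sign for miR-106b-5p to miR-106b-3p (−0.01) with a pseudocount of 5 (0.027), with the authors' normalized values (0.14) and without 1 library (−0.35 to 0.18), and for miR-25-3p to miR-92a-3p (−0.44) with a pseudocount of 5 (0.37), with the authors' normalized values (0.41) and without 1 library (−1.01 to 0.077). Both rest on few counts. With a pseudocount of 0 the ratios to miR-92a-3p could not be formed. Samples of the same number did not deviate together (correlations of 0.15, −0.10, 0.05 and 0.01), so the numbers are not taken as pairs; only chow replicate 1 correlated best with its own number. With the replicate number as a block, 15 miRNAs were called and 0 members. Low counts limit miR-18a-5p, miR-19a-3p, miR-92a-3p and miR-106b-3p, for which no difference was detectable. For miR-92a-3p, a low level and the unstated assignment of reads matching several miRNAs cannot be told apart.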
